A study of Mus musculus with 6 samples.

Results

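The genes of neuroendocrine secretory granules and of the neuroendocrine lineage were followed in medullary thymic epithelial cells (mTEC) of the mouse. They are 10 genes taken from a list by symbol: the granins Chga, Chgb, Scg2 and Scg3, the convertases Pcsk1 and Pcsk2 with the chaperone Scg5, the vesicle protein Syp, and the transcription regulators Insm1 and Neurod1. All 10 were found among the 52636 gene rows of the count table, and all 10 passed the filter on low counts that left 32496 genes for testing. RNA was sequenced in bulk from 3 tuft-like and 3 non-tuft-like mTEC libraries, sorted from thymi of C57BL/6 mice at 6 weeks of age, with no transgene or treatment named for either population. By their labels both populations bound the lectin UEA1, had little MHCII and were negative for CD80 (low in the paper's account), Sca1 and CD63; the tuft-like cells carried CD117 and CD66a, and the non-tuft-like cells carried neither. The non-tuft-like gate is thus set by the absence of markers and can hold several kinds of mTEC, and how many mice entered each library is not given in the sources used here.

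Neuroendocrine cells store peptide hormones in dense-core granules. Granins aggregate in the trans-Golgi network and help the granule to form, prohormone convertases cut the precursors inside it, and the ripe granule waits for a signal before it fuses with the cell membrane. In the gut, the airway and the pancreatic islet, such cells arise under transcription factors of which Insm1 and Neurod1 are examples. In the thymus, mTEC transcribe many genes that otherwise belong to other tissues, partly under the regulator Aire, and some mTEC take on features of peripheral cell types, among them tuft cells and neuroendocrine cells.

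The sort was checked first. Dclk1, a tuft cell kinase, reached 28.5 ± 7.27 CPM (read counts divided by the library's effective size in TMM scaling; SD, n = 3) in non-tuft-like libraries and 1584 ± 290 in tuft-like libraries, and all 7 genes of the tuft list were called higher in tuft-like mTEC. Ceacam1, which encodes CD66a, was called higher (log2 fold change 4.12, SE 0.43, edgeR FDR 0.0009). Kit, which encodes CD117, was higher in each tuft-like library but missed the threshold (1.24, SE 0.29, edgeR FDR 0.0678). Genes of the gate markers that the labels give alike for both populations, Cd63, Ly6a (Sca1), Cd80 and H2-Aa (MHCII), had a lower level in every tuft-like than in every non-tuft-like library, and H2-Aa was called lower (-2.01, SE 0.42, edgeR FDR 0.0372), a call that ended when replicate 1 or 2 of either population was left out (edgeR FDR at most 0.315). Aire was called lower in tuft-like mTEC (-3.83, SE 0.30, edgeR FDR 0.0003). Libraries held 20097617 to 48369825 counts on genes, and the share of all reads that fell on no gene ran from 34.4% to 52.5% in non-tuft-like libraries and from 19.7% to 61.6% in tuft-like libraries. The strand setting of the counting is not stated, so antisense reads cannot be set apart.

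The starts of the genes with the palindrome TGACGTCA (Chgb, Scg2 and Pcsk1) are shown here beside that of Chga, the most abundant member, which lacks it; they are taken from RefSeq (build GRCm38.p6). RefSeq promoters of 300 bases (250 before the start and 50 after it) were matched for 9 of the 10 members. Each stretch below holds the 100 bases before the RefSeq start and the first 50 after it, 5′ to 3′ on the gene's strand. Capitals mark the palindrome TGACGTCA, a full cAMP response element, or in Chga its first 5 letters TGACG. In Chga these letters are followed by taa where the palindrome has TCA, so the likeness goes beyond the capitals. Chga lies at chr12:102554841-102554990 on the plus strand, Chgb at chr2:132781542-132781691 on the plus strand, Scg2 at chr1:79439977-79440126 on the minus strand and Pcsk1 at chr13:75089757-75089906 on the plus strand.
Chga: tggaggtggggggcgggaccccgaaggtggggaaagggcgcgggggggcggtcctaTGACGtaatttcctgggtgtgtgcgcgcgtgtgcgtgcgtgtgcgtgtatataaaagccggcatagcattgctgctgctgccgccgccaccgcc
Chgb: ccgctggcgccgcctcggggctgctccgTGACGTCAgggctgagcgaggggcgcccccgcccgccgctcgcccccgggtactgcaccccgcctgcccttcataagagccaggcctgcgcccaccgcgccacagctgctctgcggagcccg
Scg2: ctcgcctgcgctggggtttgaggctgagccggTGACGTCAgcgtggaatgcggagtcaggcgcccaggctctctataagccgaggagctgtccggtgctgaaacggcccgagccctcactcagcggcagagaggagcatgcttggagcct
Pcsk1: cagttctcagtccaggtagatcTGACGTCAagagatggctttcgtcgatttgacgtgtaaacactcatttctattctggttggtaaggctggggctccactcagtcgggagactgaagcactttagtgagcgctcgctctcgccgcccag

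Searched on both strands, TGACGTCA was present in 3 of the 9 member promoters, those of Chgb, Scg2 and Pcsk1, and in 1.79% of the 32851 mouse promoters in the table. Counted from the start (the first transcribed base is 1 and the base before it is -1), its first base lay at -72 in Chgb, -68 in Scg2 and -78 in Pcsk1. TGACG, which is contained in TGACGTCA, was present in 7 of the 9, all but Syp and Neurod1, and in 20.8% of all promoters; in Chga it began at -44. The TATA box letters TATAAA were found in Chga, with the first base at 6, and in 13.6% of all promoters. GENCODE begins Chga 28 bases downstream of the RefSeq start and begins Chgb, Scg2 and Pcsk1 364, 94 and 31 bases upstream of it, so each position holds for the RefSeq start alone.

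The letters TTCAGCACC, part of the element read by the repressor of neuronal genes Rest, occurred in the Scg2 promoter on the opposite strand, beginning at -7, and in 0.371% of all promoters. The E-box CAGCTG, a kind of site read by basic helix-loop-helix factors, was present in the promoters of Chga, Chgb and Pcsk2 and in 16.3% of all. The E-box CAGATG was in none of the 9 and in 17.2% of all. These matches describe letters in a window and were not tied to a measurement of binding.

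All 10 genes had reads in every library, and the members spanned a wide range of levels. Levels between genes are compared as CPM per kb, the CPM divided by the gene's exon length. In non-tuft-like mTEC the mean was 730 CPM per kb for Chga, 253 for Scg2, 174 for Chgb and 125 for Scg5, followed by 13.5 for Pcsk1, 10.03 for Scg3, 7.94 for Syp, 4.18 for Insm1, 2.01 for Neurod1 and 1.24 for Pcsk2. Chga stood at rank 35 among 32422 tested genes with an exon length in non-tuft-like libraries and at rank 120 in tuft-like libraries. Scg2 stood at rank 122 and 288, Chgb at 192 and 252, and Scg5 at 303 and 499, in the same order of populations. In this order of levels the non-tuft-like libraries of Chga and Scg2, of Scg2 and Chgb, of Scg5 and Pcsk1, and of Syp and Insm1 did not overlap, while all other neighbours did.

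In tuft-like mTEC the order was Chga (266 CPM per kb), Chgb (150), Scg2 (138), Scg5 (87.6), Pcsk1 (13.1), Syp (6.03), Scg3 (5.82), Neurod1 (2.001), Insm1 (1.76) and Pcsk2 (1.36). The ranges of the 4 most abundant genes overlapped from neighbour to neighbour. Within each tuft-like library, however, Chga was the highest and Scg5 the lowest of the 4, so the order of Chgb and Scg2 alone changed from library to library. Scg5 was apart from Pcsk1, Pcsk1 from Syp, and Scg3 from Neurod1.

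**Figure D1:**
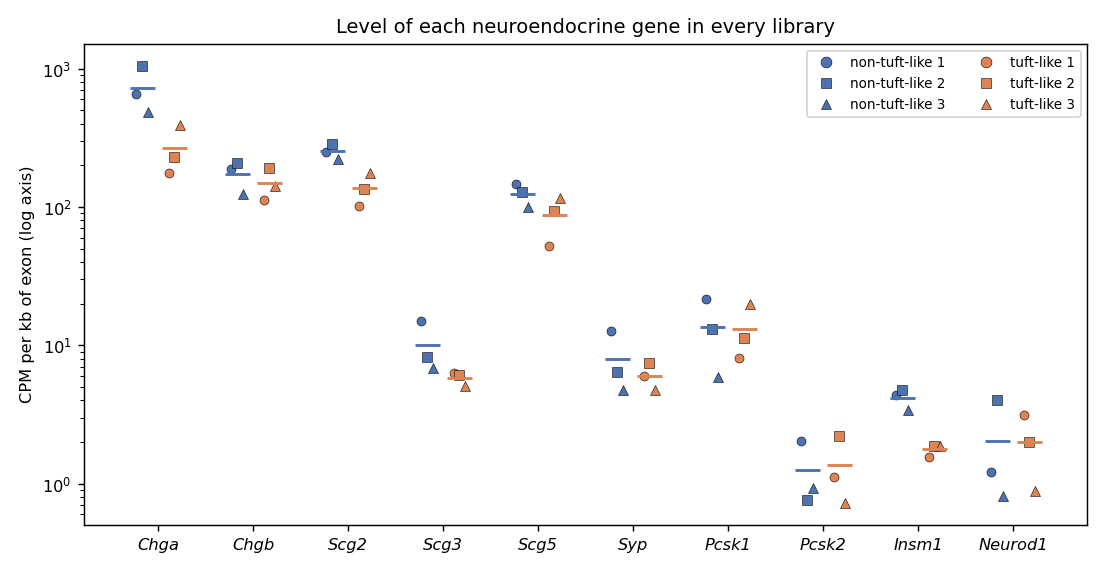
Level of each of the 10 genes (x axis) as TMM-normalized CPM per kb of exon (y axis, log scale), with 1 point per library, marked by replicate number, and a bar at the mean of 3 libraries. The 3 non-tuft-like points lie above the 3 tuft-like points for Chga, Scg2, Scg3 and Insm1 and overlap them for the other 6 genes.

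How far each gene stood above stray reads was read from 1092 olfactory receptor genes, which belong to the nasal epithelium. The 99th percentile of their reads per kb ran from 45.7 to 86.3 over the 6 libraries. Since mTEC can transcribe genes of other tissues, this is a range for genes of a foreign tissue, not a measured noise level. Chga stood at 63.4 to 605 times that percentile, Scg2 at 36.7 to 164 times, Chgb at 40.6 to 120 times and Scg5 at 18.9 to 91.8 times. Pcsk1, Scg3 and Syp also exceeded it in all 6 libraries, with lowest multiples of 2.14, 2.27 and 1.73. Insm1 exceeded it in 4 libraries, Pcsk2 in 2 and Neurod1 in 2, so 7 of the 10 members were above it throughout.

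**Figure D2:**
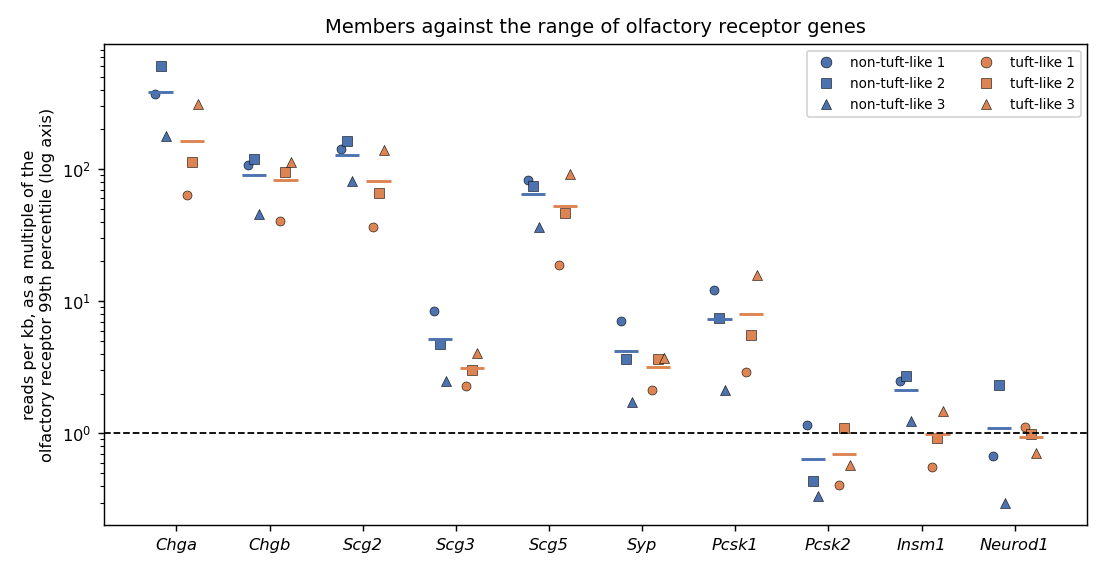
Reads per kb of each of the 10 genes divided by the 99th percentile of 1092 olfactory receptor genes in the same library (y axis, log scale), with 1 point per library and a bar at the mean of 3; the dashed line marks a multiple of 1. Chga, Chgb, Scg2 and Scg5 lie at 18.9 times or more in every library, while Pcsk2, Insm1 and Neurod1 lie on both sides of the line.

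Chga encodes chromogranin A, the granin most used as a mark of neuroendocrine cells, at chr12:102554969-102565028. Its level was 1801, 2892 and 1341 CPM in non-tuft-like libraries 1 to 3, and 485, 631 and 1087 CPM in tuft-like libraries 1 to 3. Every non-tuft-like library was above every tuft-like library, and the libraries nearest to each other were both numbered replicate 3. The means were 2011 ± 797 and 734 ± 314 CPM (SD, n = 3), and the log2 fold change, tuft-like over non-tuft-like, was -1.45 (SE 0.45, 95% interval -2.44 to -0.46). By edgeR's quasi-likelihood test this had an unadjusted p of 0.0083 and, adjusted over all tested genes, an FDR of 0.189, which does not pass the threshold of 0.05. In bulk RNA, fewer cells that express a gene and less of its RNA per cell cannot be told apart, here and in all that follows.

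The Chga value rested on single libraries to a degree. Without non-tuft-like replicate 2, the highest, the log2 fold change was -1.09 (edgeR FDR 0.928), and without tuft-like replicate 3 it was -1.89 and passed the threshold (edgeR FDR 0.0432). Non-tuft-like replicate 2 also held 46981 counts of Pth, the parathyroid hormone gene of a gland whose cells make chromogranin A, against 7200 in replicate 3 and 45 in replicate 1; the tuft-like libraries held 10 to 24. Chga in replicate 1, at 1801 CPM, was the second highest of the 6 libraries. Of the 3 listed parathyroid genes Gcm2, the gland's defining regulator, had 0, 178 and 10 counts in non-tuft-like libraries and 36, 1 and 0 in tuft-like libraries, and Casr, the calcium receptor, had 1550 to 5519 over all 6. By edgeR 1 of the 3 was called lower in tuft-like mTEC, and the lowest log2 fold change of this list was -9.57. The 3 genes summed to between 142 and 1121 CPM in non-tuft-like libraries and between 43.2 and 140 CPM in tuft-like libraries, and their part in the Chga difference was not tested beyond leaving out this library.

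Among tuft-like libraries, replicate 3 had the highest Chga level and the smallest share of reads on no gene (19.7%), and replicate 1 had the lowest level and the largest share (61.6%). With reads subtracted at the rate measured on olfactory receptor genes, the Chga log2 fold change was -1.48 and was called.

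Scg2 encodes secretogranin II, the source of the peptide secretoneurin, at chr1:79434669-79440120. Its level was 632, 717 and 557 CPM in non-tuft-like libraries and 256, 337 and 446 CPM in tuft-like libraries, in replicate order. The groups did not overlap, and tuft-like replicate 3 was again nearest to the non-tuft-like libraries. The means of 635 ± 79.8 and 347 ± 95.3 CPM gave a log2 fold change of -0.87 (SE 0.32, 95% interval -1.58 to -0.17) with an unadjusted p of 0.0201 and an FDR of 0.328 in edgeR's test.

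Chgb encodes chromogranin B, at chr2:132781278-132795079, which shares with Scg2 and Pcsk1 the palindrome printed above. Its level was 520, 571 and 342 CPM in non-tuft-like libraries and 309, 528 and 392 CPM in tuft-like libraries. The groups overlapped, since tuft-like replicate 2 exceeded 2 of the non-tuft-like libraries. The means were 477 ± 120 and 410 ± 111 CPM, and the log2 fold change was -0.22 with an interval of -0.96 to 0.52 (edgeR FDR 1), so a difference of the size fitted for Scg2 lies inside the interval.

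Scg3 encodes secretogranin III, which tethers granins to cholesterol-rich granule membrane, at chr9:75643189-75684056. It was far less abundant than the other granins, at 41.1, 22.4 and 18.8 CPM in non-tuft-like libraries and 17.3, 16.6 and 13.9 CPM in tuft-like libraries. The groups did not overlap, but non-tuft-like replicate 3 lay within 2 CPM of the highest tuft-like library, and non-tuft-like replicate 1 stood well above the rest. The log2 fold change was -0.78 (SE 0.44, 95% interval -1.75 to 0.19, edgeR FDR 0.805) and came to -0.39 without non-tuft-like replicate 1.

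Scg5 encodes 7B2, the chaperone that binds the precursor of Pcsk2 until it is activated, at chr2:113776362-113829121. Its level was 229, 202 and 157 CPM in non-tuft-like libraries and 82.5, 148 and 182 CPM in tuft-like libraries. The highest tuft-like library exceeded the lowest non-tuft-like library, so the groups overlapped. The means were 196 ± 36.2 and 137 ± 50.4 CPM, with a log2 fold change of -0.51 (SE 0.34, 95% interval -1.26 to 0.23, edgeR FDR 0.967).

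Pcsk1 and Pcsk2 encode the prohormone convertases PC1/3 and PC2, which cut hormone precursors at paired basic residues. Pcsk1, at chr13:75089826-75134861, had 122, 72.9 and 33.0 CPM in non-tuft-like libraries and 45.1, 63.4 and 111 CPM in tuft-like libraries. Both groups spanned nearly the same range, and the log2 fold change was -0.05 with an interval of -1.11 to 1.01 (edgeR FDR 1). The interval still holds a 2-fold difference either way.

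Pcsk2, at chr2:143546156-143816285, was the least abundant member per kb. It had 16.2, 6.004 and 7.34 CPM in non-tuft-like libraries and 8.89, 17.6 and 5.72 CPM in tuft-like libraries. High and low libraries occurred in both groups, and the log2 fold change of 0.13 had an interval of -1.42 to 1.67 (edgeR FDR 1). Its exons overlap the antisense genes Pcsk2os1 and Pcsk2os2 over 359 bases of 7910. How reads from there were counted is not known, since the strand setting is not stated.

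Syp encodes synaptophysin, a membrane protein of small synaptic-like vesicles, at chrX:7638471-7653256. Its level was 66.2, 33.1 and 24.8 CPM in non-tuft-like libraries and 31.0, 38.7 and 24.6 CPM in tuft-like libraries. Apart from the high non-tuft-like replicate 1, the libraries of both groups lay between 24.6 and 38.7 CPM. The log2 fold change was -0.40 (SE 0.41, 95% interval -1.32 to 0.52, edgeR FDR 1) and 0.10 without that library, and 875 of the 5211 exon bases overlap an antisense gene.

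Insm1 encodes a zinc finger repressor needed for the differentiation of endocrine cells, at chr2:146221921-146225020, and had the larger fitted difference of both regulators. Its level was 13.6, 14.6 and 10.6 CPM in non-tuft-like libraries and 4.79, 5.79 and 5.83 CPM in tuft-like libraries. The groups were well apart, and the 3 libraries within each group lay close together, with a coefficient of variation of 16.3% and 10.7%. The log2 fold change was -1.24 (SE 0.62, 95% interval -2.62 to 0.13), with an unadjusted p of 0.0719 and an FDR of 0.674 in edgeR's test. The 14 other settings placed it between -1.48 and -1.15, and none called it. In 2 of the 3 tuft-like libraries Insm1 did not exceed the 99th percentile of olfactory receptor genes, whereas it did in all 3 non-tuft-like libraries.

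Neurod1 encodes a basic helix-loop-helix activator of endocrine and neuronal genes, at chr2:79452521-79456751. It had 3.28, 10.99 and 2.23 CPM in non-tuft-like libraries and 8.51, 5.44 and 2.43 CPM in tuft-like libraries. The groups overlapped fully, and the highest non-tuft-like library was 4.94 times the lowest. The log2 fold change of -0.01 had an interval of -2.14 to 2.12 (edgeR FDR 1), so no difference was detectable at this spread, and the interval holds a 4-fold difference either way. Neurod1 shares 201 exon bases with Cerkl on its own strand and 154 with an antisense gene.

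Set side by side, 9 of the 10 members had a lower fitted level in tuft-like mTEC, the exception being Pcsk2, and the median log2 fold change of the 10 was -0.45 against 0.02 over all genes tested. The folds of Neurod1 (-0.01) and Pcsk1 (-0.05) were close to none. The sign turned for Neurod1, Pcsk1, Pcsk2 and Syp under 7, 5, 3 and 1 of the 14 other settings. By edgeR's quasi-likelihood test, 0 members were called higher, where 1.16% of all tested genes were, and 0 were called lower, where 0.951% were. At an unadjusted p under 0.05, 2 members were lower (Chga and Scg2; 4.59% of all genes) and 0 were higher (4.38% of all genes). Libraries of the populations did not overlap for 4 members with the lower level in tuft-like mTEC (Chga, Scg2, Scg3 and Insm1; 8.85% of all genes) and for 0 with the higher (7.18% of all genes).

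Other tests placed Chga and Scg2 on the other side of the threshold. DESeq2 called both lower, where it called 2.86% of all genes lower, and limma voom called both lower, where it called 1.37% of all genes lower. Neither called a member higher, at 2.99% of all genes for DESeq2 and 1.42% for limma voom. Chga was called under 6 of 14 other settings, with a log2 fold change between -1.89 and -1.09 and an FDR between 0.00086 and 0.928. Scg2 was called under 4 of 14, with a log2 fold change between -1.14 and -0.69. For single genes an exact two-sided permutation test over 3 against 3 libraries cannot give a p under 0.1, and it gave 0.1 for Chga, Scg2, Scg3 and Insm1.

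**Figure D3:**
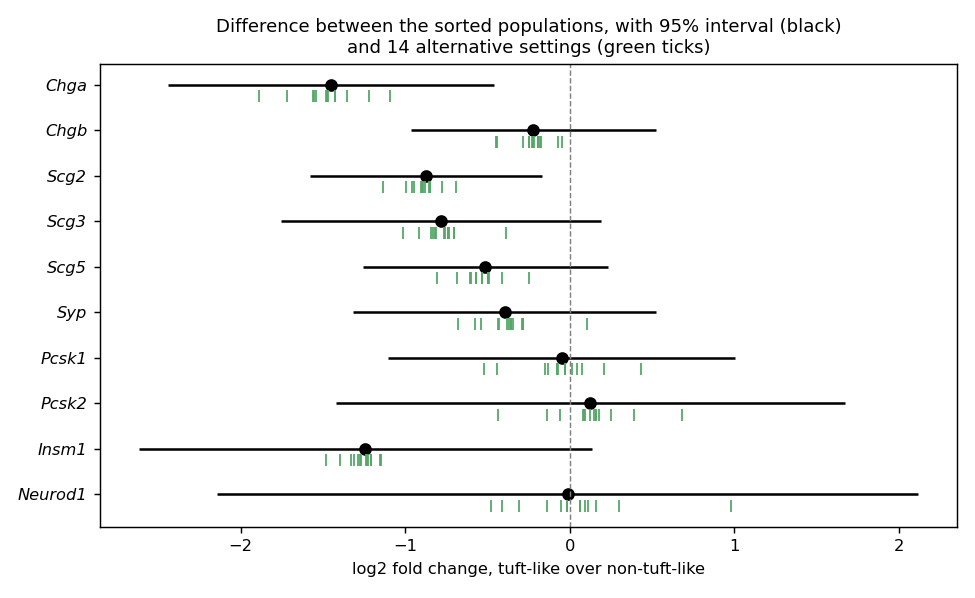
Log2 fold change of each of the 10 genes, tuft-like over non-tuft-like (x axis), from edgeR (black point) with its 95% interval (black line) and under 14 other settings (green ticks); the dashed line marks no difference. The intervals of Chga and Scg2 lie below 0 while those of the other 8 genes cross it, and the ticks of Syp, Pcsk1, Pcsk2 and Neurod1 lie on both sides of 0.

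Ratios of reads per kb within each library were taken to describe the makeup of granule RNA. They were chosen after the data were seen. Chga exceeded Chgb by 3.44, 5.04 and 3.90 times in non-tuft-like libraries and by 1.56, 1.19 and 2.76 times in tuft-like libraries. These groups did not overlap (exact two-sided permutation test on log2 ratios, p = 0.1, the smallest that 3 against 3 allow). For this and the other ratios, the share of all gene pairs that would also not overlap was not measured. The ratio of Scg2 to Chgb was 1.32, 1.37 and 1.78 in non-tuft-like libraries and 0.903, 0.696 and 1.24 in tuft-like libraries, also without overlap (exact permutation p = 0.1). Within the granins, Chgb therefore made up a larger part relative to Chga and Scg2 in tuft-like libraries than in the non-tuft-like libraries. This restates the folds of these genes given above and is no separate evidence. The ratio of Chga to Scg5 did not overlap either, at 4.48, 8.14 and 4.85 in non-tuft-like libraries and 3.35, 2.43 and 3.41 in tuft-like libraries.

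The ratio of Chga to Scg2 was 2.60, 3.68 and 2.20 in non-tuft-like libraries and 1.73, 1.71 and 2.22 in tuft-like libraries, and the groups overlapped (exact permutation p = 0.2). Ratios of the vesicle genes Slc18a1 to Slc18a2 and of Scg5 to Pcsk2 were also taken, and overlapped (exact permutation p = 0.9 and 0.3). The ratio of Pcsk1 to Pcsk2 ran from 6.34 to 17.1 in non-tuft-like libraries and from 5.09 to 27.5 in tuft-like libraries, so the populations overlapped (exact permutation p = 1.0 for the difference in mean log2 ratio). Pcsk2 exceeded the 99th percentile of olfactory receptor genes in 2 libraries only, so ratios to Pcsk2 rest on a low denominator. Summed over Chga, Chgb, Scg2, Scg3 and Scg5, the level was 3223, 4404 and 2416 CPM in non-tuft-like libraries and 1150, 1662 and 2120 CPM in tuft-like libraries.

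**Figure D4:**
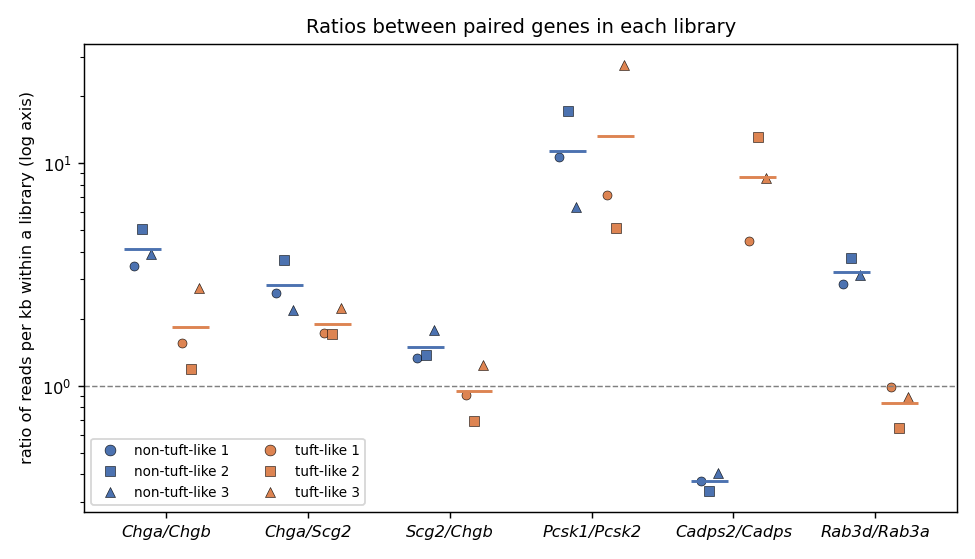
Ratio of reads per kb between 2 genes within each library (y axis, log scale) for 6 gene pairs, with 1 point per library and a bar at the mean of 3; the dashed line marks equal levels. Chga/Chgb, Scg2/Chgb and Rab3d/Rab3a are lower and Cadps2/Cadps is higher in every tuft-like than in every non-tuft-like library, and Chga/Scg2 and Pcsk1/Pcsk2 overlap.

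The rest of the regulated secretory pathway was followed in 5 lists of 103 genes, of which 98 were tested. By edgeR 1 gene was called higher, where 1.16% of all tested genes were, and 2 were called lower, where 0.951% were. Libraries did not overlap for 23 of the 98 with the lower level in tuft-like mTEC (8.85% of all genes). The same held for 8 with the higher level (7.18% of all genes). The median log2 fold change of the lists was -0.38, against 0.02 over all tested genes. Granule cargo and its processing enzymes had 0 calls among 14 tested genes and a median of -0.46. The most abundant per kb were Resp18, a granule protein of endocrine cells, with 255 ± 82.7 CPM per kb in non-tuft-like libraries and 254 ± 124 in tuft-like libraries, Cpe, the carboxypeptidase that trims convertase products, with 32.8 ± 25.1 and 29.9 ± 15.6, and Pcsk7, a convertase of the constitutive route, with 14.7 ± 1.09 and 9.02 ± 2.44. Of these, Pcsk7 alone had libraries that did not overlap.

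Both calls among the 35 tested genes of vesicle membrane and exocytosis fell on a pair of paralogs that prime dense-core vesicles for release. Cadps had 103, 132 and 88.4 CPM in non-tuft-like libraries and 40.9, 33.2 and 42.8 CPM in tuft-like libraries, and was called lower (log2 fold change -1.47, SE 0.28, edgeR FDR 0.0258). Cadps2 had 24.5, 28.4 and 22.7 CPM in non-tuft-like libraries and 115, 276 and 232 CPM in tuft-like libraries, and was called higher (3.05, SE 0.37, edgeR FDR 0.0017). The groups were far apart for both genes, and Cadps2 was called under all 14 other settings and Cadps under 10 of them. Cadps was not called once either of the first 2 non-tuft-like libraries (edgeR FDR 0.0675 and 0.186) or the second tuft-like library (edgeR FDR 0.178) was left out.

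Read per kb within a library, the ratio of Cadps2 to Cadps was 0.373, 0.337 and 0.404 in non-tuft-like libraries and 4.44, 13.1 and 8.53 in tuft-like libraries, so the more abundant paralog differed between the populations in every library. Among the Rab3 proteins, small GTPases on secretory vesicles, Rab3a had 45.3, 26.0 and 24.4 CPM in non-tuft-like libraries and 59.8, 82.0 and 107 CPM in tuft-like libraries (log2 fold change 1.38, SE 0.35, edgeR FDR 0.0921). The ratio of Rab3d to Rab3a was 2.86, 3.74 and 3.15 in non-tuft-like libraries and 0.981, 0.644 and 0.893 in tuft-like libraries, again without overlap (exact permutation p = 0.1).

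The most abundant genes of the vesicle list per kb were those of the fusion machinery. Vamp8 had 90.9 ± 6.55 CPM per kb in non-tuft-like libraries and 91.2 ± 36.0 in tuft-like libraries, Vamp2 had 42.9 ± 7.72 and 73.0 ± 26.6, and Syt1, a calcium sensor of release, had 56.8 ± 18.0 and 33.3 ± 2.92. None of the 3 was called, and the libraries did not overlap for Syt1 alone.

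Lineage regulators other than Insm1 and Neurod1 had 0 calls among 26 tested genes, with a median log2 fold change of -0.20. Isl1, a LIM homeobox factor of islet and gut endocrine cells, had 38.4 ± 5.95 CPM per kb in non-tuft-like libraries and 21.2 ± 9.79 in tuft-like libraries. St18 had 19.4 ± 4.197 and 19.7 ± 1.63, and Rfx6, a factor of gut and islet endocrine differentiation, had 24.7 ± 9.50 and 11.4 ± 2.49, without overlap for Rfx6.

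Genes of amine synthesis had 0 calls among 4 tested. Ddc, the aromatic amino acid decarboxylase, had 18.1 ± 1.61 CPM per kb in non-tuft-like libraries and 10.9 ± 4.08 in tuft-like libraries, Tph1, the first enzyme of serotonin synthesis, had 4.77 ± 1.81 and 3.90 ± 1.75, and Dbh, which makes noradrenaline, had 1.16 ± 1.08 and 1.65 ± 0.72. Of these, Ddc alone had libraries that did not overlap.

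Peptide hormone genes had the lowest median of the 5 lists, -0.9995 over 19 tested genes, with 1 call. Of the 21 listed, 6 exceeded the 99th percentile of olfactory receptor genes in every library, so the median rests largely on genes of low level. Penk, the enkephalin precursor, had 70.6, 74.9 and 44.9 CPM in non-tuft-like libraries and 5.04, 1.61 and 3.73 CPM in tuft-like libraries, and was called lower (log2 fold change -4.20, SE 0.50, edgeR FDR 0.0017), as it was under all 14 other settings. Pyy, a gut hormone, had 141, 48.7 and 58.4 CPM in non-tuft-like libraries and 6.12, 12.7 and 24.7 CPM in tuft-like libraries, without overlap, and narrowly missed the threshold (-2.51, SE 0.57, edgeR FDR 0.0543). Ghrl, which encodes ghrelin, had 124, 154 and 33.3 CPM against 21.3, 10.8 and 30.6 CPM, with the closest libraries 33.3 and 30.6 CPM (-2.31, SE 0.56, edgeR FDR 0.0748).

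Iapp, which encodes the islet peptide amylin, was the most abundant hormone gene per kb, with 591, 537 and 320 CPM in non-tuft-like libraries and 476, 552 and 823 CPM in tuft-like libraries, and the groups overlapped. Hormone genes of the granule pathway stood at unequal folds in the same libraries.

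**Figure D5:**
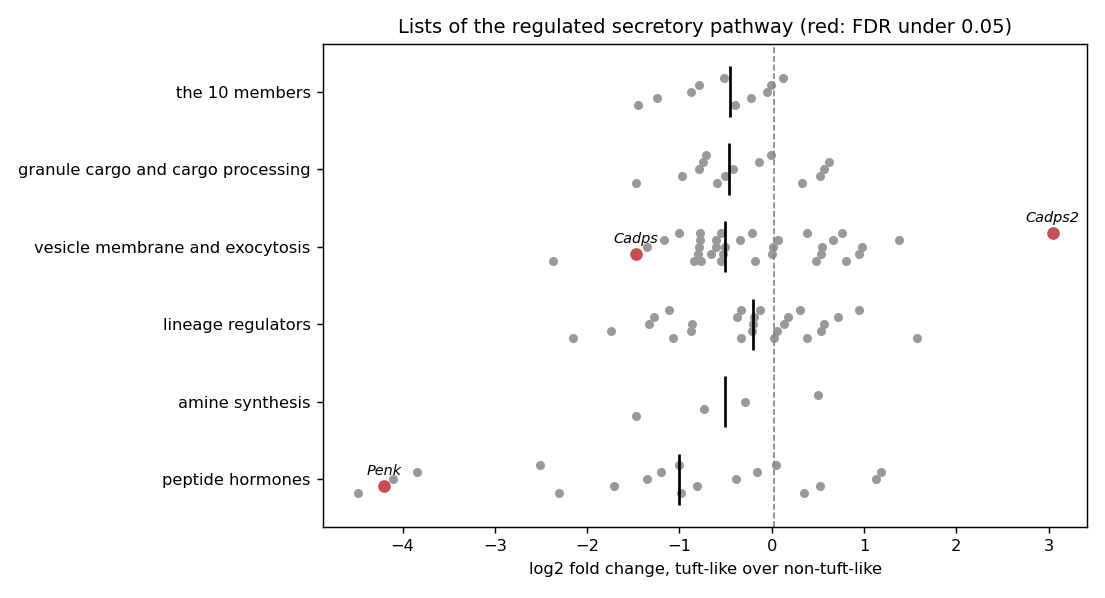
Log2 fold change, tuft-like over non-tuft-like (x axis), of each tested gene in the 10 members and 5 pathway lists (rows), with black bars at list medians, red points for genes called by edgeR at an FDR under 0.05, and a dashed line at the median of all tested genes (0.02). Cadps2 is called higher and Cadps and Penk lower, no member is called, and the peptide hormones have the lowest median (-0.9995).

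Genes of other cells that can carry granule proteins were measured in the same libraries. The 8 neuronal genes summed to between 82.6 and 95.2 CPM in non-tuft-like libraries and between 127 and 150 CPM in tuft-like libraries, and Nefl, a neurofilament gene, was the only 1 of them called (log2 fold change 3.59, SE 0.63, edgeR FDR 0.0151). Of the 8 genes, 5 had a lower fitted level in tuft-like mTEC and the list's median log2 fold change was -0.49, so the sum and the median differed in sign. The 4 thyroid genes, whose gland holds the calcitonin-making C cells, summed to between 22.9 and 50.5 CPM in non-tuft-like libraries and between 24.5 and 33.4 CPM in tuft-like libraries. Of 8 haematopoietic genes, Cd74 alone was called (lower in tuft-like mTEC); it encodes the MHCII invariant chain that mTEC also make, and it gave most of the list's sum of 7874 to 9987 CPM in non-tuft-like libraries and 1357 to 2694 CPM in tuft-like libraries. Of 8 epithelial and mTEC genes, Aire, Fezf2, Foxn1 and Krt14 were called lower in tuft-like mTEC, and Epcam, the pan-epithelial marker, was present at 229.5 CPM or more in every library. The 4 fibroblast and endothelial genes had 0 calls and a median log2 fold change of 1.29, and summed to between 11.6 and 23.2 CPM in non-tuft-like libraries and between 12.6 and 149 CPM in tuft-like libraries; the highest sum was that of tuft-like replicate 1, where Pecam1, an endothelial gene, had 106 CPM. The 5 Schwann cell genes summed to between 112 and 178 CPM and between 80.3 and 189 CPM, and the part of these lists in the results was not tested.

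For 9 members the gene most like each was sought by Pearson's r of log2(CPM + 1) over the 6 libraries, among the 23814 genes that averaged 1 CPM or more. These values carry no test, since 6 libraries that share 2 groups and their depths leave many genes with a high r: 138 genes exceeded 0.95 with Chga, 299 with Scg2 and 259 with Insm1. The closest were Spns1 for Chga (r = 0.997), Cep120 for Chgb (0.998), Ctss for Scg2 (0.997), Znhit6 for Scg3 (0.995) and Ldha for Scg5 (0.998). They were D430042O09Rik for Pcsk1 (0.996), Creld1 for Pcsk2 (0.997), Ccnd2 for Insm1 (0.995) and Lrrc66 for Neurod1 (0.981). No 2 of these 9 members shared a closest gene. Of pairs of members, Chga and Scg2 had r = 0.98, Scg2 and Insm1 0.94, and Chga and Insm1 0.93, whereas Chga and Chgb had 0.56 and Chga and Neurod1 -0.01.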

How the data were processed

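Per the labels and the paper's methods, the authors used Trimmomatic 0.36 on reads of ultra-low-input libraries, STAR 2.7.3a for alignment to mm10 and HTSeq in its intersection-nonempty mode, and deposited whole read counts per gene without normalization. Their strand setting and annotation release are not given in the sources used here. Cells were sorted into trizol according to the methods, while the labels name a column kit.

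Symbols, coordinates and exon lengths came from GENCODE release M21 (mm10) by Ensembl identifier, and 147 gene rows without a symbol held 0.0164% of counts. The 92 ERCC rows were at 0, and the 5 rows of unassigned reads entered no library size. Groups came from the labels. Genes kept by filterByExpr (minimum count 10, minimum total 15) were TMM-normalized and tested with edgeR 4.0.16 (R 4.3.3), quasi-likelihood, population as the only term, Benjamini-Hochberg adjustment over all tested genes and an FDR threshold of 0.05. The SE was approximated from the fold change and its F statistic, and intervals use the fitted degrees of freedom. The common biological coefficient of variation was 1.10.

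The 10 members and all gene lists were chosen with earlier results of these data known. Named were all members, pathway genes that were called, the 3 most abundant genes per kb of each pathway list, checks of the sort and markers that move with a member; Rab3a, Rab3d, Nefl, Cd74, Epcam, Pecam1, H2-Aa and the other gate genes, and the gene ratios were chosen after seeing their values. Exact permutation tests (20 splits) used scipy 1.17.1. A count of 0 allows up to 3 counts, 0.0639 to 0.124 CPM by library; this covers counting error only, since without molecular identifiers PCR copies are counted as reads. Nothing says the libraries came from separate mice, so p-values measure the spread between these libraries, which may be partly technical. At most 1.36% of genes had the same count in a pair of libraries. Alternatives were other normalizations and tests (limma 3.58.1, DESeq2 1.42.0), filters, background subtraction, the replicate number as a block and leaving out each library. The gene most like Syp is not reported here.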

Additional observations from a re-analysis of the deposited data

How the results depend on the processing

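With 3 libraries a group and a common biological coefficient of variation of 1.10, the intervals of all members span more than 1 log2 unit, and leaving a library out leaves 2 in its group. Directions of Chga, Chgb, Scg2, Scg3, Scg5 and Insm1 were the same under all 14 other settings, and Chgb, Scg3, Scg5, Syp, Pcsk1, Pcsk2, Insm1 and Neurod1 were called under none of them. Against 378 genes called higher and 309 lower, DESeq2 called 972 and 930. The lower calls numbered 526 with library size only, 577 with no filter on low counts, 509 with background reads subtracted and 478 at an FDR under 0.10; leaving out a library gave 220 to 467 higher and 154 to 612 lower, with the smallest counts without non-tuft-like replicate 2 or tuft-like replicate 2 and the largest lower count without tuft-like replicate 3. Against 0 members called lower, 2 were called by DESeq2, by limma voom, with library size only and with background reads subtracted (Chga and Scg2), and 1 with no filter (Chga); leaving out a library gave 0 to 1, the 1 being Chga once tuft-like replicate 3 was left out. Against 1 pathway gene called higher, 2 were called by DESeq2, by limma voom, with library size only, with no filter, with background reads subtracted and at an FDR under 0.10. Against 2 called lower, DESeq2 called 8, and 4 were called with library size only, with no filter, with background reads subtracted and at an FDR under 0.10; leaving out a library gave 1 to 4, with 1 without non-tuft-like replicate 1 or tuft-like replicate 2 and 4 with replicate 3 of either population left out. The sign of the log2 fold change turned for Pcsk1 under limma voom (0.0714), and for Neurod1 under RLE normalization (0.0649), DESeq2 (0.0636), library size only (0.11) and background subtraction (0.0905). Leaving out a library gave -0.68 to 0.10 for Syp, -0.52 to 0.43 for Pcsk1, -0.44 to 0.68 for Pcsk2 and -0.48 to 0.98 for Neurod1. The median of all genes moved from 0.02 to -0.17 under limma voom, -0.20 without tuft-like replicate 1, 0.15 without non-tuft-like replicate 3 and 0.14 without tuft-like replicate 3, and stayed within 0.1 under the other scalings. The cause of these shifts was not tested, other than that a left-out library means fewer samples.

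Same-numbered libraries had correlations of -0.10, -0.04 and -0.27 between their deviations from the group means, so no pairing by replicate number was seen. Differences in library quality can also enter these deviations, so they cannot settle whether same-numbered libraries came from the same mice. With the number as a replicate block, 361 genes were called higher and 376 lower, 0 members were called in either direction, and the pathway lists had 1 higher and 2 lower; Pcsk1 came to 0.0161 and Neurod1 to 0.16, Cadps and H2-Aa lost their calls (edgeR FDR 0.053 and 0.189) and Pyy gained one (edgeR FDR 0.0396).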
